A study of Mus musculus with 9 samples.

Results

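Open chromatin was described at 10 genes that the transcription factor p53 is known to induce, namely Cdkn1a, Ccng1, Mdm2, Trp53inp1, Zmat3, Bax, Bbc3, Pmaip1, Phlda3 and Sesn2, out of 21896 protein-coding genes in the GRCm38 annotation. A peak was assigned to one of them when its summit lay inside the gene span, or within 50 kb of it with that gene as the nearest protein-coding gene. This gave 217 peaks in 9 libraries, which merged into 41 of the 76253 regions of the series. Bax was chosen by the presence of peaks, partly because a peak at the end of the gene was listed in mutants and not in WT, so the values of that peak are given as a description. The outermost assigned summit lay 48.0 kb from Pmaip1, and the nearest one beyond the window lay 53.9 kb from the same gene.

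The assay was ATAC-seq, in which the Tn5 transposase cuts accessible DNA, on mouse LSK cells, lineage-negative bone marrow cells that carry Sca-1 and Kit and include haematopoietic stem cells. The groups were WT, Bcat_KO (the Wnt effector β-catenin), HOXA9_KO (the homeobox factor Hoxa9) and PRMT1_KO (the arginine methyltransferase Prmt1), all with 2 libraries, and a single library of the double mutant in β-catenin and Hoxa9 (dKO), which has no replicate error. The sample titles name the mutants KO and the genotype tags name them knockdown. Strain, age, the alleles or the driver of a deletion, and whether paired libraries are from different mice are not given in the sources used here, so p-values measure only the spread between these libraries, which may be technical. The series text names only Prmt1KO primary transplants as a source of cells.

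p53 is a transcription factor that is stabilized by DNA damage and other stress and binds pairs of a short DNA half-site near its targets. Its targets stop the cell cycle, trigger mitochondrial cell death, alter metabolism and, through Mdm2, switch p53 itself off again. In haematopoietic stem cells p53 is known for limiting proliferation and for removing damaged cells, while Bax, Bbc3 and Pmaip1 carry the death arm.

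Each peak carries a fold, the read pileup at the summit over the local background as the authors' peak caller gave it. Lists of different libraries are not scaled to each other. Over the 19172 regions with a peak in all 8 libraries of the paired groups, the mean fold of the 6 mutant libraries was a median of 1.19 times that of WT, and it was above WT in 87.1% of them. The p53 targets had a median of 1.21 over their 16 such regions, 13 of them above WT. Folds are therefore given per library as a description, and groups are compared by the rank percentile of a region in lists shortened to the same 28325 strongest peaks, where 100 is the strongest peak and 0 means that the region is not in the shortened list.

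Cdkn1a, Ccng1, Mdm2 and Bax are the 4 of 7 genes with an entry in the RefSeq promoter table (GRCm38.p6) whose 300-base window, from 250 bases before the start to 50 after it, held an exact p53 consensus half-site on either strand. Counted by window it was 4 of 10, against 8.36% of all 32851 promoter windows. The windows of these 4 genes are shown so that the letters can be read beside the peak values, with half-sites in capitals and each sequence given 5′ to 3′ along the gene. The first window is chr17:29090729-29091028 on the plus strand, the second chr17:29093519-29093818 on the plus strand, the third chr11:40755237-40755536, the fourth chr10:117710709-117711008 and the fifth chr7:45466849-45467148, the last 3 on the minus strand.
Cdkn1a, first start: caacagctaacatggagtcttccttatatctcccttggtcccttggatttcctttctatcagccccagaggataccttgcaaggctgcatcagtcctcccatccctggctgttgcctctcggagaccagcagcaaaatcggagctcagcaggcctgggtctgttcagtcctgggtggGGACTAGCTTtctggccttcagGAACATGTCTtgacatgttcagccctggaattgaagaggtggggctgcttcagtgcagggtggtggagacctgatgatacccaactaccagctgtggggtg
Cdkn1a, second start: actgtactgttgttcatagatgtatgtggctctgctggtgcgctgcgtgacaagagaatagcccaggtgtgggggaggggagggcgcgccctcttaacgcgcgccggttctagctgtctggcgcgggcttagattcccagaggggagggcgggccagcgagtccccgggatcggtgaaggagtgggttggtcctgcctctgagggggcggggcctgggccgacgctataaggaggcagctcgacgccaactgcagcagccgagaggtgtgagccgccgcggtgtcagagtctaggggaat
Ccng1: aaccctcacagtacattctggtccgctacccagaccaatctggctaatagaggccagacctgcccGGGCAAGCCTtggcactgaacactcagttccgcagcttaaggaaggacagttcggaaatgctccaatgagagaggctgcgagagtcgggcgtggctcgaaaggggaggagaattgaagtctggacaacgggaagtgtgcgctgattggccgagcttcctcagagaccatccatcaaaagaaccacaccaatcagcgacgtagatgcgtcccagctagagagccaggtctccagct
Mdm2: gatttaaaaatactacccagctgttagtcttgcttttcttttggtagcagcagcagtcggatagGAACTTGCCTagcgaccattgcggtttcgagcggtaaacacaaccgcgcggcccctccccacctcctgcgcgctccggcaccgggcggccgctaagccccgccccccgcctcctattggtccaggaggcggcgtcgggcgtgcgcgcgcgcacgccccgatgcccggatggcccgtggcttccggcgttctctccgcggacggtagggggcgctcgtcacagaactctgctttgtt
Bax: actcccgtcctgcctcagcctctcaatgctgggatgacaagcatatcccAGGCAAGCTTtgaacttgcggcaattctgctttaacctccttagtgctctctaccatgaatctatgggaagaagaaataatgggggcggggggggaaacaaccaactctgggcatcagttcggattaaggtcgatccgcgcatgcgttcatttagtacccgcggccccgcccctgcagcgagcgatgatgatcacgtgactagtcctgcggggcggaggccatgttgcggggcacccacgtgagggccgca

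The first Cdkn1a window held 2 half-sites, GGACTAGCTT beginning 73 bases before the start and GAACATGTCT beginning 51 bases before it, with 12 bases between them. A pair of exact half-sites 0 to 13 bases apart occurred in 0.0731% of all windows. That window held 2 CpG and the second one held 23, against a median of 7 over all windows. The half-site GGGCAAGCCT of Ccng1 began 185 bases before its start, GAACTTGCCT of Mdm2 186 bases before and AGGCAAGCTT of Bax 201 bases before. With at most 1 mismatch allowed per half-site, the first Cdkn1a window held 2 pairs 0 to 13 bases apart and the Ccng1 window 1. The smallest gap was 0 bases in both. These were 2 of the 10 windows searched, and such pairs occurred in 2.71% of all windows. Ccng1 had 4 CCAAT boxes, and the windows of Mdm2 and Bax were rich in CpG, with 35 and 19. These are matches of letters in a 300-base window and say nothing of binding.

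The libraries differed in ways that bear on every comparison below. They held 28325 to 45460 peaks in the 8 paired libraries and 10639 in the dKO, and the most common background of a list was 1.03 to 1.60 reads per base in the 8 and 0.461 in the dKO. Peaks in the male-specific part of the Y chromosome (below 90 Mb) numbered 0 in both WT libraries, 12 to 16 in the 6 mutant libraries and 6 in the dKO, so sex moved with WT against mutant and its part in the results was not tested. Of 11 stem and progenitor markers 7 to 10 had a peak at the start in the paired libraries and 2 had one in the dKO, while Ly6a, which encodes Sca-1, had none in any library. Start peaks were listed at 0 or 1 of 4 T-cell, 0 of 4 B-cell, 0 to 2 of 4 myeloid, 1 or 2 of 4 erythroid and 2 of 3 stromal markers. The stromal marker peaks were at Col1a1 and Col1a2 in every paired library and Cdh5 had none, and the dKO had none of these 19 markers.

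The starts of the p53 targets were accessible in all 4 paired groups. In such bulk libraries, fewer cells with an open site and less opening per cell cannot be told apart. A peak within 1 kb of the start, or of a gene end for the 3 genes whose strand was not taken, was listed in all 8 paired libraries for 9 of the 10 genes. Cdkn1a was the exception, with such a peak in 5 of 8. Peaks at the 10 genes numbered 24 and 22 for WT, 27 and 28 for Bcat_KO, 26 and 31 for HOXA9_KO, 25 and 28 for PRMT1_KO and just 6 for the dKO library. WT had fewer than each mutant library, but in the shortened lists the numbers overlapped, with 18 and 22 in WT (20 ± 2.83, SD, n = 2) and 19 to 22 in the mutants (20.5 ± 1.05, SD, n = 6). Here and below, n = 6 pools the libraries of 3 genotypes, so the SD also holds differences between genotypes. Of the 41 regions, 16 had a peak in all 8 paired libraries, 6 in all 9 and 10 in a single library, while 14 lay inside a gene span and 27 outside.

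**Figure D1:**
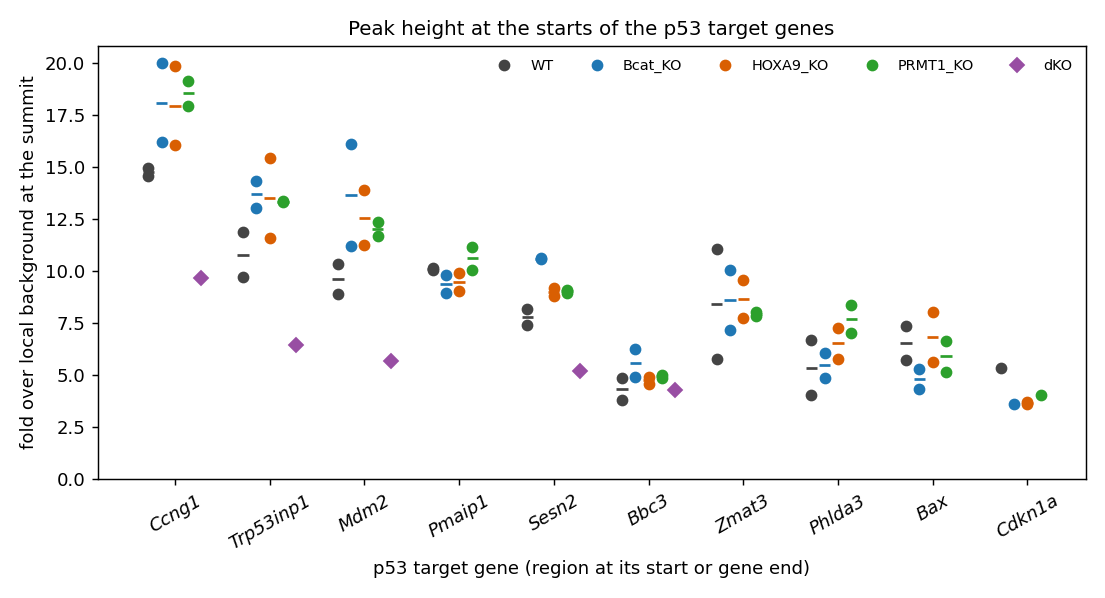
Fold over the local background at the summit (y axis, linear) of the region at the start or gene end of each of the 10 genes (x axis), 1 point per library coloured by genotype, with a bar at the mean of each pair. Ccng1 stands highest with 14.6 to 20.01 in the paired libraries, Cdkn1a lowest with points in 5 libraries, and diamonds of the dKO appear at 5 genes.

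Among the genes of cell cycle arrest and p53 feedback, Ccng1, Mdm2 and Trp53inp1 had strong peaks at their starts in every paired library, and their ranks did not set the groups apart. Ccng1 encodes cyclin G1, a regulator that feeds back on p53 through Mdm2. Its start (chr11:40754616-40755697) had folds of 14.97 and 14.6 for WT, 16.2 and 20.01 for Bcat_KO, 16.1 and 19.8 for HOXA9_KO, 19.1 and 18.0 for PRMT1_KO and 9.68 for the dKO. All 6 mutant folds lay above both WT folds, as they did in 31.0% of all regions with a peak in the 8 libraries and in 6 of the 16 at the p53 targets. By rank Ccng1 was level, at the 95.9th to the 98.4th percentile in each of the 8 libraries (exact permutation p = 0.905 over all divisions into 4 pairs). A second Ccng1 region, 8.27 kb upstream (chr11:40763094-40763952), was listed with folds of 9.39 in replicate 2 of Bcat_KO, 7.36 and 6.996 in HOXA9_KO and 9.83 in replicate 2 of PRMT1_KO. WT and replicate 1 of both Bcat_KO and PRMT1_KO had no peak there, so the replicates of these mutants differed (exact permutation p = 0.771).

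Mdm2 encodes the ubiquitin ligase that degrades p53. Its start (chr10:117709972-117711203) had folds of 10.3 and 8.91 for WT, 11.2 and 16.1 for Bcat_KO, 11.2 and 13.9 for HOXA9_KO, 11.7 and 12.3 for PRMT1_KO and 5.70 for the dKO. Replicate 2 of Bcat_KO was the highest, at the 92.1st percentile, and the other 7 libraries lay between 79.4 and 85.4, so the groups overlapped (exact permutation p = 0.743). The 2 other Mdm2 regions were each listed in 1 library. The gene span of Mdm2 runs over chr10:117688875-117710758.

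Trp53inp1 encodes a stress-induced nuclear protein that acts with p53. The peak at the gene end of lower coordinates (chr4:11155847-11156860) had folds of 11.9 and 9.72 for WT, 13.1 and 14.3 for Bcat_KO, 11.6 and 15.4 for HOXA9_KO, 13.4 and 13.3 for PRMT1_KO and 6.43 for the dKO. Its percentile was 78.5 in replicate 2 of WT and 82.8 to 89.1 in the other 7 libraries, and replicate 1 of WT lay among the mutants (exact permutation p = 0.743). A weaker region 9.17 kb outside that end was listed in 7 libraries with folds of 3.70 to 6.26, and only 1 of them had it in its shortened list.

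Cdkn1a, which encodes the cyclin-dependent kinase inhibitor that halts the cell cycle in response to p53, had its strongest peak inside the gene and not at a start. The table gives 2 starts, 2.79 kb apart. At the first, whose window holds the pair of half-sites, no library listed a peak. At the second (chr17:29093609-29093864) folds were 5.33 in replicate 2 of WT, 3.62 in replicate 2 of Bcat_KO, 3.72 and 3.62 in HOXA9_KO and 4.04 in replicate 2 of PRMT1_KO, and the other libraries had none. These are low values, and only that of WT was in a shortened list, at the 40.2nd percentile.

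The region in the body of Cdkn1a (chr17:29094686-29095800, 1.76 kb beyond the second start) was listed in all 8 paired libraries. Its folds were 8.13 and 7.17 for WT, 9.31 and 8.59 for Bcat_KO, 9.22 and 7.57 for HOXA9_KO and 9.43 and 10.5 for PRMT1_KO. Percentiles ran from 53.9 to 78.1, with WT at 69.8 and 62.7 in the middle of the mutants (exact permutation p = 0.429). Upstream, a region 11.8 kb from the gene that overlaps the noncoding RNA gene Trp53cor1, itself a p53 target, had folds of 3.89 in replicate 1 of Bcat_KO and 3.90 in replicate 1 of HOXA9_KO. A region 8.87 kb upstream was listed in replicate 2 of each mutant, with folds of 5.14 in Bcat_KO, 3.33 in HOXA9_KO and 4.94 in PRMT1_KO. None of these weak upstream peaks was in WT, and none was in 2 of the 8 shortened lists, so they were not tested.

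Zmat3 encodes a zinc-finger RNA-binding protein that acts in the p53 response. The peak at its gene end of higher coordinates (chr3:32364998-32366252) had folds of 11.1 and 5.79 for WT, 7.16 and 10.0 for Bcat_KO, 9.59 and 7.72 for HOXA9_KO and 7.82 and 8.02 for PRMT1_KO. The libraries of WT were the farthest apart, at percentiles 81.2 and 41.9, and spanned nearly all the mutants (exact permutation p = 0.962). A second region, 17.0 kb beyond the other end, was listed in 7 libraries with folds of 4.86 to 8.54 (exact permutation p = 0.695).

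Of the genes of the death arm, Bax had a peak beyond its 3′ end in the 6 libraries of the single mutants, which is the peak it was chosen for. Bax encodes the pore-forming protein that permeabilizes the mitochondrial outer membrane, and its gene span is chr7:45461695-45466903 on the minus strand. The region (chr7:45460894-45461321) has its summit 650 bp beyond the 3′ end of Bax and 1159 bp upstream of the start of Ftl1, which encodes the ferritin light chain. Folds were 5.48 and 5.02 in Bcat_KO, 3.11 and 5.01 in HOXA9_KO and 5.79 and 5.83 in PRMT1_KO, from 33, 28, 21, 29, 41 and 34 reads at the summit. WT and the dKO had no peak there.

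By percentile this Bax region stood at 49.4 and 32.5 in Bcat_KO, 35.5 in replicate 2 of HOXA9_KO, 50.6 and 50.3 in PRMT1_KO and 0 in replicate 1 of HOXA9_KO and both WT libraries. Both PRMT1_KO libraries were thus just inside the stronger 14162 of 28325 peaks, replicate 1 of Bcat_KO was just outside and replicate 2 was well below. A region counts as opened when both mutant libraries hold it in the stronger 14162 peaks and both WT libraries lack it, and closed in the reverse case, and 0.243% of all 36181 regions tested were opened in PRMT1_KO. The Bax region is the only one of the 23 tested at the p53 targets that met this, and since it was chosen for this pattern nothing is read from the count. It did not meet it when ranked by fold, at the length of the dKO list, or with peaks of a −log10 q of at least 5 only.

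The Ftl1 start next to it had a peak in all 8 paired libraries, with folds of 7.48 and 8.84 in WT and 9.49 to 12.4 in the mutants. The local background there was 4.21 and 3.41 reads in WT, and peaks of these libraries with a background within 10% of that were listed down to folds of 2.46 and 2.69. Of the peaks at that background, 5% had a fold of at most 3.30 and 3.60. Beyond the 3′ end of Ftl1, another region showed folds of 4.58 and 4.50 in Bcat_KO, 3.49 in replicate 2 of HOXA9_KO and 4.81 and 4.99 in PRMT1_KO, and none in WT or in replicate 1 of HOXA9_KO. The absence of a listed peak in WT at these sites moves with the lower peak number of WT and with the Y-chromosome peaks, and their part was not tested.

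**Figure D2:**
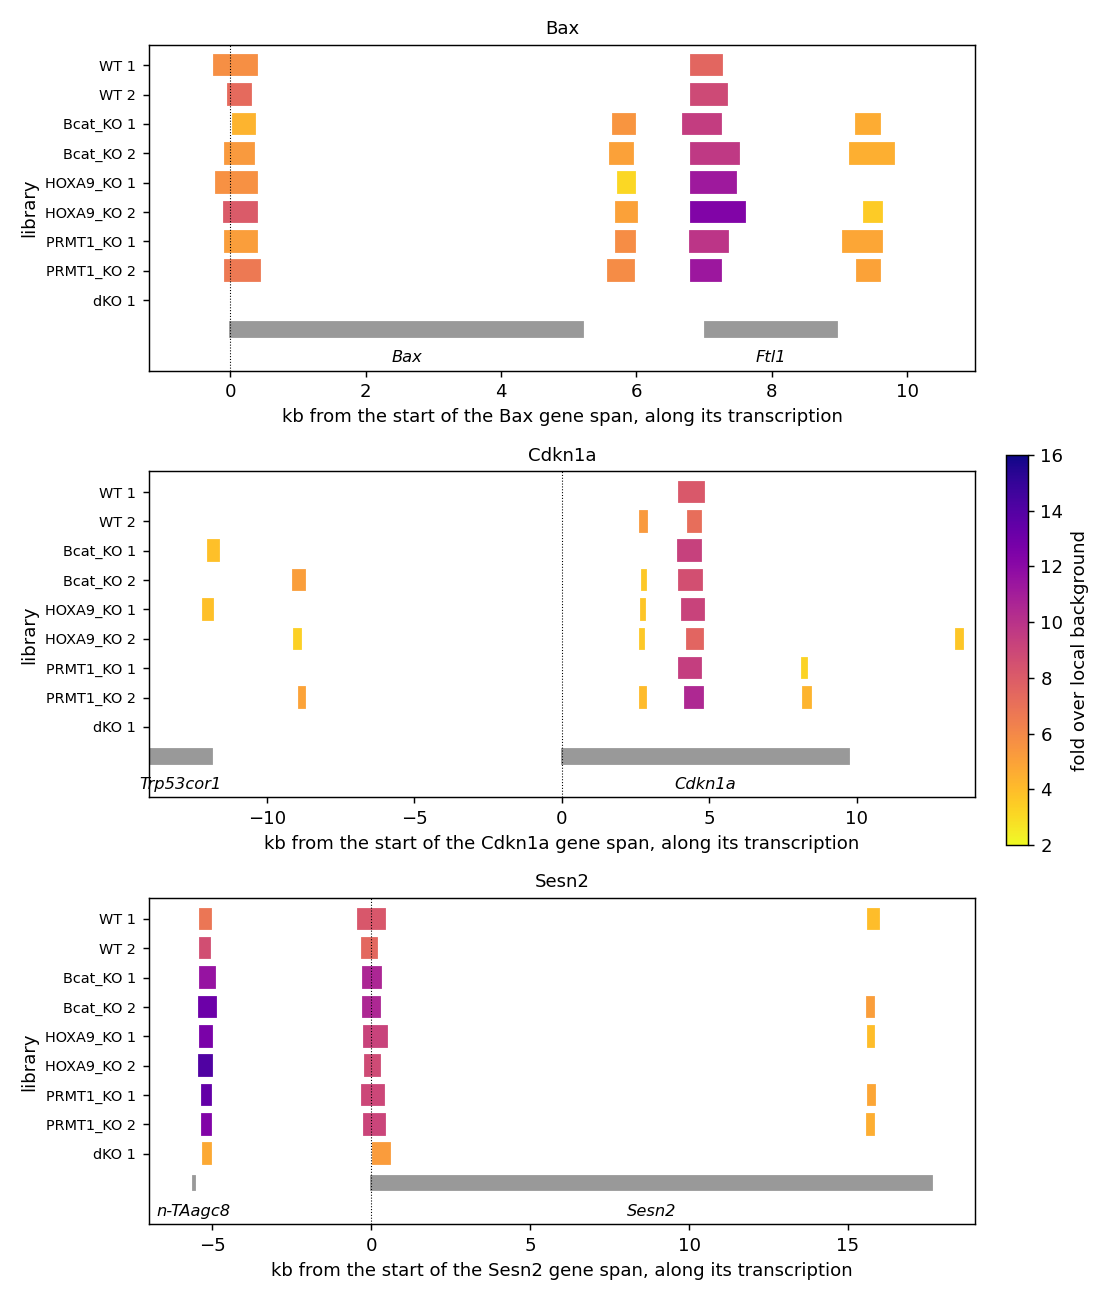
Peaks of each of the 9 libraries (y axis) drawn to scale by distance in kb from the start of the gene span (x axis) at Bax with Ftl1, Cdkn1a with Trp53cor1, and Sesn2 with the tRNA gene n-TAagc8, coloured by fold over local background, with gene spans in grey. The peak between Bax and Ftl1 is present in the 6 mutant libraries with folds of 3.11 to 5.83, no peak lies at the first start of Cdkn1a, and the region upstream of Sesn2 is darkest in the mutants.

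At the start of Bax (chr7:45466456-45467137) all 8 paired libraries had a peak and the order was not that of the 3′ side. Folds were 5.73 and 7.34 for WT, 4.32 and 5.30 for Bcat_KO, 5.64 and 8.02 for HOXA9_KO and 5.14 and 6.66 for PRMT1_KO. The mean was 6.54 ± 1.14 (SD, n = 2) in WT and 5.85 ± 1.31 (SD, n = 6) in the mutants, so the folds overlapped. Percentiles were 42.1 and 59.6 for WT, 0 and 0.417 for Bcat_KO, 24.2 and 44.9 for HOXA9_KO and 0 and 29.4 for PRMT1_KO. Bcat_KO was at or near 0 in both replicates, replicate 1 of PRMT1_KO was also at 0, and replicate 2 of HOXA9_KO lay above replicate 1 of WT (exact permutation p = 0.143, Benjamini-Hochberg adjusted 0.448). The mean difference of −34.3 percentiles between the mutants and WT became −14.7 with the lists as deposited, where the means were 42.0 and 56.7.

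The gene-end regions whose percentiles over the 8 libraries were most like those of the Bax 3′ region were at Cxxc5, Dennd1b, Gm15448, Cacnb2 and Dido1, with Pearson's r from 0.983 to 0.959. Most like the Bax start were Syp, Clmn, Phf19, Kbtbd6 and Zfp442, with r from 0.987 to 0.950. Each set is the top 5 of 11930 genes over the same 8 libraries, which differ in genotype and depth together, and r is a description only.

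Bbc3 encodes the BH3-only protein Puma, an activator of Bax, and its 6 regions were among the weaker ones by fold. By rank its 3 tested regions had median percentiles of 44.1 to 49.2. At the start (chr7:16309188-16310823) folds were 4.85 and 3.81 for WT, 6.26 and 4.89 for Bcat_KO, 4.91 and 4.59 for HOXA9_KO, 5.00 and 4.88 for PRMT1_KO and 4.26 for the dKO. Percentiles ran from 32.7 to 64.9, and the WT values of 62.4 and 38.1 lay within the mutant range (exact permutation p = 0.819). The regions 8.57 kb upstream and in the gene body were also listed in all 8 libraries, with folds of 4.004 to 6.45 and 3.57 to 5.40 (exact permutation p = 0.362 and 0.390).

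Pmaip1, which encodes the BH3-only protein Noxa, had the most regions of the 10 genes, with 10 on chromosome 18, of which 8 were tested and 4 were listed in all 8 paired libraries. At the gene end of lower coordinates folds were 10.1 and 10.1 for WT, 9.79 and 8.93 for Bcat_KO, 9.05 and 9.91 for HOXA9_KO and 11.2 and 10.1 for PRMT1_KO. By percentile both WT libraries, at 78.2 and 78.0, stood above all 6 mutants, at 57.4 to 75.5, with PRMT1_KO nearest to WT. This was the 1 member region of 23 with WT above all mutants, against 9.07% of all regions, and the groups did not differ beyond the spread of their libraries (exact permutation p = 0.0857, Benjamini-Hochberg adjusted 0.448 over all regions).

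On the side of higher coordinates, the 3 tested Pmaip1 regions had their highest mean percentile in PRMT1_KO. The region 12.8 kb from the gene had folds of 9.71 and 8.35 for WT, 10.4 and 15.1 for Bcat_KO, 9.72 and 11.2 for HOXA9_KO and 14.3 and 13.1 for PRMT1_KO. Percentiles were 76.1 and 71.7 for WT, 69.9 and 85.3 for Bcat_KO, 59.4 and 65.9 for HOXA9_KO and 85.8 and 81.9 for PRMT1_KO, so HOXA9_KO lay below WT and PRMT1_KO above it in both replicates (exact permutation p = 0.133). The region 5.3 kb from the gene had folds of 5.58 and 6.07 for WT, 6.32 and 5.42 for Bcat_KO, 5.66 and 7.33 for HOXA9_KO and 8.36 and 7.77 for PRMT1_KO, with PRMT1_KO highest and the other groups overlapping. It stood at percentiles 47.5 and 53.4 for WT, 34.5 and 7.28 for Bcat_KO, 24.5 and 44.1 for HOXA9_KO and 60.6 and 62.4 for PRMT1_KO, with the lower order in Bcat_KO and HOXA9_KO and the higher in PRMT1_KO (exact permutation p = 0.105).

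On the other side of Pmaip1, the region 20.7 kb away had folds of 8.07 and 4.78 for WT, 11.6 and 10.7 for Bcat_KO, 9.17 and 12.6 for HOXA9_KO and 11.3 and 12.5 for PRMT1_KO. Replicate 2 of WT was the lowest at the 26.6th percentile, replicate 1 of WT at 66.0 lay above replicate 1 of HOXA9_KO at 61.9, and the groups overlapped (exact permutation p = 0.190). A region 2.5 kb on the higher side was listed in 5 libraries, with folds of 5.35 and 3.74 in WT, 5.14 in replicate 1 of Bcat_KO and 6.17 and 6.79 in PRMT1_KO, and in neither HOXA9_KO library. The 3 other tested regions of Pmaip1, 10.7 to 48.0 kb away, were weak, with folds of 3.81 to 6.96 and percentiles of at most 28.7.

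**Figure D3:**
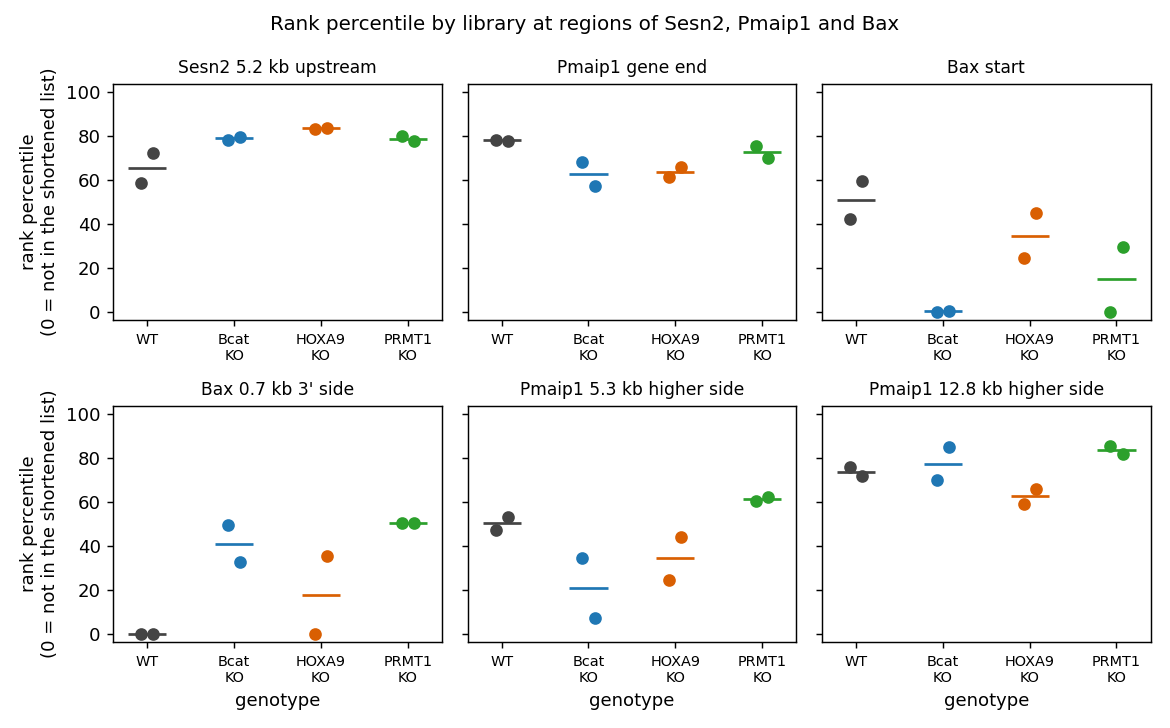
Rank percentile (y axis, 100 strongest, 0 not in the shortened list) by genotype (x axis) at 6 regions of Sesn2, Pmaip1 and Bax, 1 point per library with a bar at the mean of each pair. Both WT points lie below all mutant points at the Sesn2 upstream region and above them at the Pmaip1 gene end, and the Bax 3′ side has both WT points and 1 HOXA9_KO point at 0.

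Phlda3 encodes a pleckstrin-homology protein that restrains the survival kinase Akt. Its only region was at its start (chr1:135765734-135766587), with folds of 6.67 and 4.05 for WT, 6.07 and 4.88 for Bcat_KO, 5.78 and 7.27 for HOXA9_KO and 8.35 and 7.05 for PRMT1_KO. By fold PRMT1_KO held the highest value and replicate 2 of WT the lowest. By percentile replicate 2 of Bcat_KO was the lowest at 0 and replicate 2 of WT was at 11.6. The percentiles of 0 to 47.3 overlapped between groups (exact permutation p = 0.457).

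Sesn2, which encodes the leucine sensor Sestrin2 that restrains mTORC1, carried the 1 member region with an unadjusted exact permutation p of at most 0.05. This region (chr4:132515356-132515887) lies 5.17 kb upstream of the gene, 121 bp from the annotated tRNA gene n-TAagc8 and 14.9 kb from Atpif1, the next protein-coding gene. Folds were 6.80 and 8.64 for WT, 11.5 and 13.1 for Bcat_KO, 12.6 and 14.1 for HOXA9_KO, 13.4 and 12.4 for PRMT1_KO and 4.71 for the dKO. Both WT libraries lay below all 6 mutants, with means of 7.72 ± 1.30 (SD, n = 2) and 12.9 ± 0.908 (SD, n = 6). By fold this order held in 31.0% of all regions with a peak in the 8 libraries and in 6 of the 16 at the p53 targets.

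By percentile the Sesn2 upstream region stood at 58.4 and 72.6 for WT, 78.4 and 79.8 for Bcat_KO, 83.4 and 83.7 for HOXA9_KO and 80.2 and 77.7 for PRMT1_KO. The means were 65.5 ± 9.99 (SD, n = 2) in WT and 80.5 ± 2.51 (SD, n = 6) in the mutants, and the mutants were higher in 6 of 6 libraries. The exact permutation p over the 4 paired groups was 0.0286. It became 0.435 after Benjamini-Hochberg adjustment over 36181 regions, so it did not pass the correction. WT against all mutants was not tested by itself, and Bcat_KO and PRMT1_KO overlapped. Without any 1 of the 6 mutant libraries the exact permutation p was 0.162 to 0.171. Each division then holds 1 library alone, which can be the lower WT library, so these values cannot be set against 0.0286. The 2 WT libraries were 14.1 percentiles apart.

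Counting error also limits the difference at the Sesn2 upstream region, since the summits rested on 24 reads in each WT library and 38 to 49 in the mutants. The 95% Poisson intervals of the fold in WT, 4.46 to 9.99 and 5.66 to 12.7, overlapped those of 4 and of all 6 mutant libraries. The Sesn2 region also moves with the Y-chromosome peaks of the mutants and with the generally higher folds of the mutants, whose part was not tested. At the start of Sesn2 itself (chr4:132509870-132510859) folds were 8.18 and 7.42 for WT, 10.6 and 10.6 for Bcat_KO, 9.21 and 8.78 for HOXA9_KO, 8.96 and 9.08 for PRMT1_KO and 5.18 for the dKO, again with WT lowest of the paired groups. By percentile, however, WT at 70.7 and 66.3 lay inside the mutant range of 58.4 to 75.1 (exact permutation p = 0.114). Another Sesn2 region in the gene body, 15.7 kb from the start, was listed in 5 libraries with folds of 3.97 to 5.14.

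Across the 10 genes few regions separated the 4 paired groups. Of the 41 regions, 23 were in at least 2 of the 8 shortened lists and were tested, and 18 were not. The Sesn2 upstream region was the 1 of 23 (4.35%) with an exact permutation p of at most 0.05, against 9.54% of all 36181 regions tested, and the smallest p that the 105 divisions allow is 0.00952. No region of the series passed after adjustment, the lowest adjusted p being 0.435, and a shift in 1 group alone can rarely pass 0.05 because 15 of the 105 divisions keep any given pair together.

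The same Sesn2 region was the only member region with all 6 mutants above both WT libraries, against 6.25% of all regions. The Pmaip1 gene end was the only one in the reverse case. Opened regions in Bcat_KO and HOXA9_KO made up 0.348% and 0.578% of all regions and closed ones in Bcat_KO, HOXA9_KO and PRMT1_KO 0.108%, 0.207% and 0.0912%, and the p53 targets had 0 in each of these 5 counts. With 2 libraries against 2 no p under 0.333 can be had for them. The mean mutant percentile was above that of WT in 9 of the 23 tested regions and below it in 14, that is 39.1% higher against 51.6% over all regions, with a median difference of −0.626 percentiles against 0.358. Regions had to be in 2 shortened lists to enter these counts, and the Bax 3′ region is among them.

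In the dKO library 6 of the 41 regions had a peak, at the starts or gene ends of Ccng1, Mdm2, Trp53inp1, Bbc3 and Sesn2 and at the Sesn2 upstream region. With every list shortened to the 10639 peaks of the dKO, the other libraries had 7 to 10 regions. At that length Ccng1 stood at the 94.3rd percentile in the dKO, Trp53inp1 at 65.2, Mdm2 at 54.7, the start of Sesn2 at 42.9, its upstream region at 29.7 and Bbc3 at 25.04. No peak was listed at Bax, Cdkn1a, Pmaip1, Zmat3 or Phlda3, where closed chromatin and an open site below detection cannot be told apart in this library, since the lowest fold listed at its most common background was 3.42.

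The other genes of the p53 pathway and the BCL2 family, 49 in 5 lists, gave 204 regions, of which 113 were tested. A start peak was listed in all 8 paired libraries for 41 of the 49, in none for Hrk, and in the dKO for 26. An exact permutation p of at most 0.05 was reached by 9 regions (7.96%, against 9.54% of all regions), and adjusted values were 0.435 to 0.448. All mutants lay above WT in 11 regions (9.73%, against 6.25%) and WT above all mutants in 6 (5.31%, against 9.07%). None was opened or closed, where the shares over all regions were 0.0912% to 0.578%. Per list the counts at that p were 0 of 19 for p53 regulators, 2 of 15 for arrest and feedback targets, 2 of 17 for death targets, 2 of 31 for repair and metabolism targets and 3 of 31 for the BCL2 family.

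At Bcl2l1, which encodes the survival protein Bcl-xL that binds Bax, a region at chr2:152788663-152789905 had folds of 6.42 and 5.00 for WT, 8.09 and 8.85 for Bcat_KO, 8.43 and 8.93 for HOXA9_KO and 10.9 and 9.30 for PRMT1_KO. This region lies 39.5 kb from the nearest start of Bcl2l1. Its percentiles of 53.4 and 35.6 in WT lay below all the mutants at 58.5 to 76.6 (exact permutation p = 0.00952, the smallest possible, adjusted 0.435). A region near Btg2, an antiproliferative p53 target, stood at 30.6 and 27.8 in WT and 63.7 to 85.0 in the mutants, and one near Ddit4, an inhibitor of mTORC1, at 45.8 and 19.7 in WT and 61.2 to 81.4 in the mutants (exact permutation p = 0.0190 for each). They lie 11.8 and 19.07 kb from the nearest start of Btg2 and of Ddit4. A region 10.8 kb from the nearest start of the repair gene Ercc5 was also higher in all mutants (exact permutation p = 0.0190). Its percentiles were 0 and 8.43 in WT, and the lowest mutant library, replicate 1 of PRMT1_KO, was at 10.2. The other mutant libraries were at 22.5 to 73.0. The start of Psrc1 ran the other way, at 61.5 and 68.4 in WT and 14.5 to 58.6 in the mutants (exact permutation p = 0.0190). The remaining calls, at Apaf1, Bid and 2 regions of Bcl2 (exact permutation p from 0.0286 to 0.0476), had WT among the mutants. From the nearest start, the Apaf1 region lies 50.14 kb away, that of Bid 0.07 kb and those of Bcl2 86.85 and 132.28 kb. In these regions, too, the differences between WT and mutants move with the Y-chromosome peaks.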

How the data were processed

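Reads were aligned by the authors with Bowtie2 2.4.2 to GRCm38/mm10 and handled with SAMtools 1.14 and Picard 2.27.4, and peaks were called with MACS2, per the submitters' processing notes. The deposited lists, 1 per library, held a score, the fold (a ratio of pileup to local background), −log10 p and −log10 q, and the summit offset in bases, all as the authors' caller wrote them, with no scaling between libraries. They hold no read totals. Reads at a summit and local background were recovered from fold and p, with whole numbers of reads tried only. The −log10 p of the best number lay within 0.01 of the listed value for 99.8966% of peaks in the dKO list and a larger share in the other lists. Background and recovered reads ignore what was removed before peak calling, and counting intervals cover counting error only.

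Genes, members and lists were chosen with earlier results of these data known. Every member was described by the region at its start or gene end and by its region of highest median percentile, together with each region called or with a p of at most 0.05. Peaks sharing 1 bp or more were merged into regions, and lists were shortened by −log10 p. Groups were compared by a one-sided exact permutation test of the between-pair sum of squares of percentiles over 105 divisions of 8 libraries into pairs, with Benjamini-Hochberg adjustment over 36181 regions. The code was tested on simulated lists. Alternatives were the window, merging, the q threshold, ranking by fold, list length, the filter, leaving out each library and the replicate block. Replicate numbers did not pair the libraries, with correlations of deviations from −0.00636 to 0.0317. Promoter windows came from RefSeq for 7 of 10 genes. Peak sequences were not analysed here.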

Additional observations from a re-analysis of the deposited data

Results flagged for a closer look

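At 2 regions of Pmaip1 the mutants moved to opposite sides of WT in both replicates. The difference between the mutants was not tested. The share of all regions with this pattern was not computed, so nothing particular to Pmaip1 is read from it. At the region 5.3 kb on the higher side of the gene, PRMT1_KO (mean percentile 61.5) lay above WT (50.4) and Bcat_KO (20.9) below it, 40.6 percentiles apart, and HOXA9_KO (34.3) was also below WT, 27.2 percentiles under PRMT1_KO. At the region 12.8 kb on that side, PRMT1_KO (83.8) lay above WT (73.9) and HOXA9_KO (62.6) below it, 21.2 percentiles apart. This holds by percentile and not by fold, where at 5.3 kb the means were 5.82 for WT, 5.87 for Bcat_KO, 6.50 for HOXA9_KO and 8.07 for PRMT1_KO, and at 12.8 kb 9.03 for WT, 10.4 for HOXA9_KO and 13.7 for PRMT1_KO. Groups of 2 libraries are too small to look for single libraries that stand apart.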

How the results depend on the processing

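The number of regions was 41 and changed to 31 with a window of 10 kb, 42 with merging at 100 bp of overlap and 30 with a −log10 q of at least 5. With the lists as deposited, opened regions rose from 0 to 1 in Bcat_KO and in HOXA9_KO. In Bcat_KO this was the Bax 3′ region, which was chosen for this pattern, and in HOXA9_KO the Ccng1 region 8.27 kb upstream. Regions with an exact permutation p of at most 0.05 rose from 1 to 4 and those with all mutants above WT from 1 to 3. Those with WT above all mutants fell from 1 to 0. Shares over all regions were not computed for any alternative, so nothing about the p53 targets is read from the counts in this section. Opened regions in PRMT1_KO, where the only one was the same Bax 3′ region, fell from 1 to 0 with a −log10 q of at least 5, when ranked by fold and at the dKO length. Regions with an exact permutation p of at most 0.05 numbered 2 with a −log10 q of at least 5 and 2 at the dKO length. Genes with a start peak in all 8 libraries fell from 9 to 3 at the dKO length, and those with one in the dKO from 5 to 2 with a −log10 q of at least 5. Leaving out each library in turn gave 0 to 1 opened regions in Bcat_KO, 1 to 2 in PRMT1_KO, 0 to 2 with an exact permutation p of at most 0.05 (0 without HOXA9_KO replicate 1 or PRMT1_KO replicate 1), 1 to 3 with all mutants above WT (3 without WT replicate 1 or HOXA9_KO replicate 1) and 1 to 4 with WT above all mutants (4 without either WT library). With the replicate block, that is the 24 divisions whose pairs hold both numbers, the count at a p of at most 0.05 was 1, that of mutants above WT 1 and that of WT above mutants 3. With a library left out, each division holds a library that stands alone, so these counts by p are not like those from all libraries. The causes were not tested.

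For the Sesn2 upstream region, mutants were above WT on average in every alternative. The exact permutation p was 0.0833 with the replicate block, where the smallest possible is 0.0417, and 0.0286 to 0.0476 in the other alternatives that kept all libraries. It was 0.0286 without either WT library and 0.162 to 0.171 without a mutant library. With a library left out, each division holds a library that stands alone. Such values, here and for the Pmaip1 gene end, cannot be set against those from all libraries. The Pmaip1 gene end ran from an exact permutation p of 0.0476, at the dKO length or without either Bcat_KO library, to 0.333. For the Pmaip1 gene end and the Bax start, the mean mutant percentile was below WT in every alternative that gave a value. At the Bax start the difference was −34.3 percentiles, and −14.7 with the lists as deposited. The direction of the other regions was not recomputed. Depth is known only from the most common background of a list, so a missing peak in WT or in the dKO can be a region below detection.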
